A study of Homo sapiens with 9 samples.

Results

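The 33 genes described here make, sense, take up, store and export cholesterol, and they were chosen by name from the 58735 genes of the count table. They are 20 enzymes of synthesis from acetyl-CoA to cholesterol, 3 genes of sterol sensing, 5 of uptake, transport and storage, and 5 of export. RNA was sequenced from U87, a human glioblastoma line, grown in medium with fetal bovine serum, in 3 groups of 3 libraries. C269S cells stably overexpressed isocitrate dehydrogenase 1 (IDH1) carrying R132H together with a cysteine-to-serine change, written C269S. IDH1mt cells stably overexpressed the R132H enzyme alone, and PCDH cells carried the empty vector, which is the only construct they have. The study's question was how autopalmitoylation, the mutant enzyme's attachment of a fatty acid to itself, bears on gene expression, and C269S against IDH1mt is the comparison closest to that question. No group with unmutated IDH1 overexpressed was among the samples, whether each group is a clone or a pool is not given, and the labels do not say that the 3 libraries of a group are separate cultures. P-values here therefore measure only how these libraries vary, and that variation may be technical.

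Cells build cholesterol from acetyl-CoA through mevalonate, farnesyl diphosphate, squalene and lanosterol. When sterol in the endoplasmic reticulum is low, SCAP carries the precursor of the transcription factor SREBP to the Golgi for cleavage, and the released factor turns on genes of synthesis and uptake. When sterol is high, the INSIG proteins hold SCAP back, and oxysterols activate the LXR receptors, whose targets export cholesterol to apolipoproteins such as APOE. In the brain, astrocytes are the main source of APOE, and many glioblastoma cells are known to take in cholesterol rather than make it.

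To show what lies in front of the members discussed most, promoter windows were taken from RefSeq on GRCh38.p14, reaching from 250 bases before to 50 bases after each annotated start. Of the 33 genes, 29 matched an entry, with 42 windows. ACAT2, FDFT1, SQLE and ABCG1 had no window, so their promoters were not searched. The motifs searched on both strands were the sterol regulatory element TCACNCCAC, CCAAT (the box bound by NF-Y), GGGCGG (the GC box bound by Sp1) and CACGTG (an E-box). Capitals mark every match on either strand, and no match overlapped a match of another motif in the windows printed. SREBF2, which encodes the precursor of SREBP2, was the only matched member whose window held this sterol regulatory element, and it begins 133 bases before the start in chr22:41832855-41833154 on the plus strand.
SREBF2: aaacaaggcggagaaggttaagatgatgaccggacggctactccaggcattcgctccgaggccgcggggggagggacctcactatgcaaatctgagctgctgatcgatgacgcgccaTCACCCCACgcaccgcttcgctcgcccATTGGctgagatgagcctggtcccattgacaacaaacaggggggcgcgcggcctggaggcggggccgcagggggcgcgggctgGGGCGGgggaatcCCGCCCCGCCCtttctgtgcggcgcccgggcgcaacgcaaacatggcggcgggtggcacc
The sensing gene INSIG1 and the synthesis gene MSMO1 were added after their values were seen, as the members of their roles with the lowest adjusted p between IDH1mt and PCDH that have a window. The INSIG1 window is chr7:155297628-155297927 on the plus strand, with 6 GC boxes, 1 CCAAT and 1 E-box, and that of MSMO1 is chr4:165327419-165327718 on the plus strand, with 4 CCAAT and 2 GC boxes.
INSIG1: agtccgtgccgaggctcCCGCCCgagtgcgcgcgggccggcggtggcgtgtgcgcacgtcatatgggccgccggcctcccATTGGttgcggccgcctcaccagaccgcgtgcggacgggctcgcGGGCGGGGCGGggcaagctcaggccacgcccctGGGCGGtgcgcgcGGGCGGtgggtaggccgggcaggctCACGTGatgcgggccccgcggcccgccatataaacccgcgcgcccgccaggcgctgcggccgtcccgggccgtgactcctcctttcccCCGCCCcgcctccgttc
MSMO1: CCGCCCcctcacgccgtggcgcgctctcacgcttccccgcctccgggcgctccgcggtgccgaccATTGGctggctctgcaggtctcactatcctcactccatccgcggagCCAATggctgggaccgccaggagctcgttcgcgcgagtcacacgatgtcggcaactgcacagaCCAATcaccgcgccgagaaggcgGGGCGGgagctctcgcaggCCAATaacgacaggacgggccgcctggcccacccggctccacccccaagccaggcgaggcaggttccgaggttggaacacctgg
The called export genes are ABCA1, at chr9:104928106-104928405 on the minus strand with 3 GC boxes and 1 E-box, and APOE, at chr19:44905546-44905845 on the plus strand with 2 GC boxes and 1 CCAAT. APOE has 3 windows in the table, of which the first is shown.
ABCA1: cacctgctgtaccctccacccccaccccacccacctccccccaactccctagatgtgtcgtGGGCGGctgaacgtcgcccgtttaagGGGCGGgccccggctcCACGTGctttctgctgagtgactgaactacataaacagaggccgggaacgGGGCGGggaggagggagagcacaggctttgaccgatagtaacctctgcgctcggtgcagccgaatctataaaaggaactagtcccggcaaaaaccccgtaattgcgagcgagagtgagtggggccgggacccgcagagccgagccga
APOE: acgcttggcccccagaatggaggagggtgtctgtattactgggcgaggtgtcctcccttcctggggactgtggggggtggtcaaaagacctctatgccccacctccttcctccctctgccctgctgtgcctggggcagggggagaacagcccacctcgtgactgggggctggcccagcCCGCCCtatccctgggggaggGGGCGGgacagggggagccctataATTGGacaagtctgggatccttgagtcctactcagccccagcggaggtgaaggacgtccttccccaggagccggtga

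Over the members, 22 of 29 (75.9%) held CCAAT, against 39.7% of all 27305 genes in the promoter table and 42.8% of the 11119 of them that were also tested for expression. The GC box was in 27 of 29 (93.1%), against 48.3% of all genes and 75.0% of those tested. The E-box was in 5 of 29 (17.2%), against 8.77% and 12.3%, and the sterol regulatory element in 1 of 29 (3.45%), against 1.39% and 1.47%. A match is a run of letters and not a shown binding site, and these 4 spellings do not cover all forms of the elements.

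Total counts per library lay between 19108925 and 24803711, and 32 of the 33 members passed the filter on low counts. IDH1 itself stood at 739 ± 30.3 CPM (read counts scaled to library size) in C269S cells and 677 ± 16.5 CPM in IDH1mt cells, against 111 ± 7.97 CPM in PCDH cells (SD, n = 3 each). Both mutant groups were thus several times above PCDH, at 6.68-fold and 6.12-fold. Every C269S library lay above every IDH1mt library, but that log2 fold change of 0.13 (SE 0.05) was not called (edgeR adjusted p = 0.227). Which of the 2 mutants a group carries cannot be read from this level. The glioblastoma markers VIM, CD44, NES, SOX9 and CHI3L1 were all present, and of the 3 astrocyte markers GFAP averaged 3.11 CPM in C269S, 4.01 CPM in IDH1mt and 3.50 CPM in PCDH, SLC1A2 averaged 1.09, 1.02 and 0.72 CPM in those groups, and AQP4 had no count in any library. Of the 3 neuron markers, SNAP25 averaged 51.3 CPM in C269S, 54.0 CPM in IDH1mt and 45.1 CPM in PCDH. In the same order of groups, SYT1 averaged 12.9, 12.6 and 11.6 CPM, and RBFOX3 was near the floor at 0.682, 1.17 and 0.906 CPM. The mitochondrial share of counts was 3.18 to 3.35% in C269S, 3.72 to 3.80% in IDH1mt and 2.92 to 3.35% in PCDH, and its part in the results below was not tested. The library PCDH replicate 3 stood apart, with a chi-square per gene of 10.3 and 11.04 against the other PCDH libraries, where the other pairs within a group lay between 3.68 and 6.37. Where leaving it out changes the call of a gene named below, this is stated with the gene.

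Per transcript length, INSIG1 was by far the most abundant member, at an FPKM (fragments per kilobase of transcript, scaled to library size) of 128 ± 9.61 in C269S, 92.2 ± 1.83 in IDH1mt and 140 ± 6.89 in PCDH. Next in PCDH came the LXR receptor NR1H2 at 31.4 ± 1.64 FPKM, MSMO1 at 25 ± 0.408, SQLE at 24.04 ± 1.67 and the squalene synthase FDFT1 at 22.3 ± 0.825. In PCDH, MSMO1 and SQLE overlapped, as did SQLE and FDFT1, while NR1H2 lay above them. At the low end in PCDH were CYP51A1 at 1.20 ± 0.298 FPKM and MYLIP at 1.001 ± 0.266, which did not differ beyond their spread. The CYP51A1 level is uncertain, since 79.4% of its exon bases also belong to another annotated gene on the same strand. ABCG1, a sterol exporter, had 3, 2 and 0 counts in IDH1mt and none in C269S or PCDH, was not tested, and allows no fold change. In IDH1mt, SQLE (36.9 ± 0.936 FPKM) lay above both NR1H2 (30.7 ± 0.715) and MSMO1 (30.03 ± 0.503), an order that PCDH did not show.

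**Figure D1:**
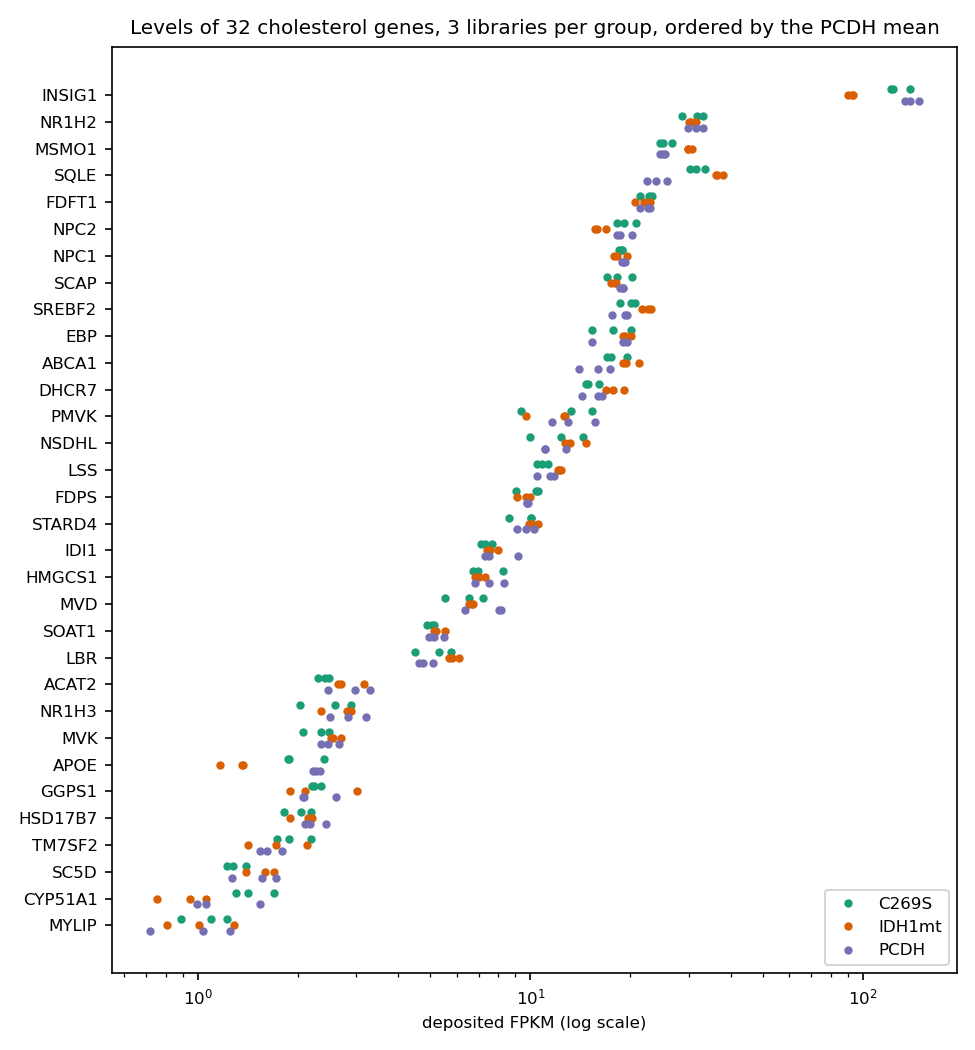
Deposited FPKM on a log axis for the 32 members with a tested count, ordered from high to low by their PCDH mean, with 3 points for each group (C269S, IDH1mt, PCDH). INSIG1 lies alone at the top, at 92.2 FPKM in IDH1mt and 140 FPKM in PCDH, and MYLIP is lowest in PCDH at 1.001 FPKM.

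In IDH1mt against PCDH, 5 members rose (SQLE, MSMO1, LBR, SREBF2 and ABCA1), 3 fell (INSIG1, NPC2 and APOE) and 24 did not pass edgeR's quasi-likelihood test at an adjusted p under 0.05. Over all 16874 genes tested, 7.18% were called higher and 6.90% lower in that comparison, beside 15.6% and 9.38% of the 32 members. That difference in share was not tested. In C269S against PCDH only SQLE was called, higher, and no member was called lower, with 0.883% of all genes higher and 0.533% lower. At an unadjusted p under 0.05 in edgeR, that comparison had 2 of 32 members higher and 3 lower, beside 1040 higher and 979 lower of all 16874 genes. DESeq2 also called no member lower there. In C269S against IDH1mt, 2 members were higher (INSIG1 and NPC2) and 2 lower (SQLE and MSMO1), with 2.29% and 2.61% of all genes called. Without PCDH replicate 3 the members called higher and lower were 5 and 4 in IDH1mt against PCDH, 2 and 1 in C269S against PCDH, and 4 and 4 in C269S against IDH1mt, whose spread is estimated from all libraries of the fit. The median log2 fold change of the 32 members was -0.0036 in IDH1mt against PCDH, -0.025 in C269S against PCDH and -0.051 in C269S against IDH1mt, beside -0.0077, -0.0084 and 0.00044 for all genes. These comparisons share libraries and are not independent of each other. In bulk RNA, fewer cells expressing a gene and less RNA per cell cannot be told apart.

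**Figure D2:**
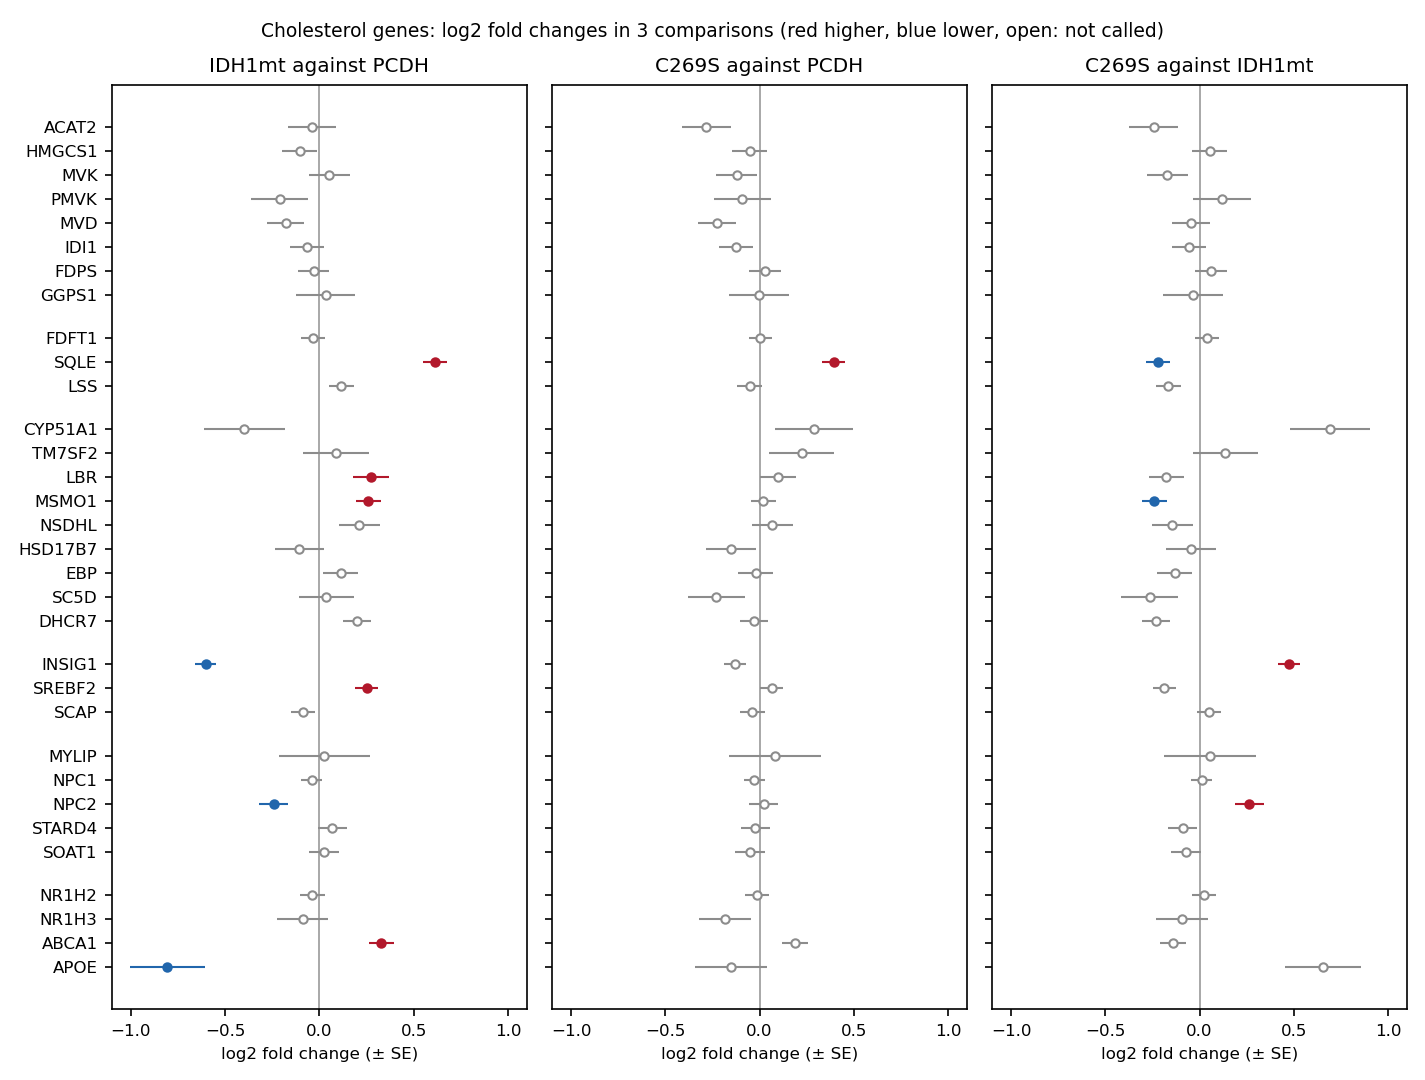
Log2 fold change with its standard error for 32 members in IDH1mt against PCDH, C269S against PCDH and C269S against IDH1mt, grouped from the top as mevalonate and prenyl steps, squalene to lanosterol, lanosterol to cholesterol, sensing, uptake and export. Filled red points were called higher and filled blue points lower, and open points were not called. SQLE at 0.61 and INSIG1 at -0.60 are the called members farthest from 0 in the first panel apart from APOE at -0.81.

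The 8 genes from acetyl-CoA to farnesyl and geranylgeranyl diphosphate were not called in any of the 3 comparisons. They are ACAT2 (a thiolase), HMGCS1 (HMG-CoA synthase), the kinases MVK and PMVK, MVD (mevalonate diphosphate decarboxylase), IDI1 (the isomerase) and the prenyl synthases FDPS and GGPS1. Their log2 fold changes lay between -0.21 and 0.05 in IDH1mt against PCDH, between -0.28 and 0.03 in C269S against PCDH, and between -0.24 and 0.12 in C269S against IDH1mt. MVD had 31.1, 26.3 and 34.1 CPM in C269S, 31.6, 31 and 32 CPM in IDH1mt, and 38.9, 38.1 and 30.2 CPM in PCDH. The mutant groups overlap PCDH only through PCDH replicate 3. Its log2 fold change was -0.18 in IDH1mt against PCDH (SE 0.10, edgeR adjusted p = 0.252) and -0.23 in C269S against PCDH (SE 0.10, edgeR adjusted p = 0.34). Without PCDH replicate 3 both were called, at -0.29 (edgeR adjusted p = 0.0217) and -0.33 (edgeR adjusted p = 0.0223). ACAT2 shares exon bases with SOD2 and TCP1 on the opposite strand, so its count is uncertain without a stated strand setting. GGPS1 shares 37.3% of its exon bases with TBCE on the same strand, so its count is uncertain whatever the strand setting.

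Of the 3 genes from farnesyl diphosphate to lanosterol, SQLE rose in both mutant groups. SQLE encodes squalene epoxidase, the first oxygen-requiring and a rate-limiting step of sterol synthesis. Its level was 136, 145 and 131 CPM in C269S, 158, 164 and 157 CPM in IDH1mt, and 97.8, 104 and 112 CPM in PCDH. The 3 groups did not overlap, with IDH1mt highest and PCDH lowest. SQLE was 1.53-fold higher in IDH1mt than in PCDH (log2 0.61, SE 0.06, edgeR adjusted p = 1.26e-08) and 1.31-fold higher in C269S than in PCDH (log2 0.39, SE 0.06, edgeR adjusted p = 0.000277). It was lower in C269S than in IDH1mt (log2 -0.22, SE 0.06, edgeR adjusted p = 0.0339), a call that was lost on leaving out any single IDH1mt library or C269S replicate 1 or 3 (edgeR adjusted p from 0.0947 to 0.162).

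The neighbours of SQLE in the pathway did not pass the test. FDFT1, which joins 2 farnesyl units into squalene, differed by log2 -0.04 in IDH1mt against PCDH and by less than 0.01 in C269S against PCDH (0.0047, SE 0.06). LSS, which closes the epoxide into lanosterol, had 82.2, 76.2 and 79.0 CPM in C269S, 88.6, 87.9 and 90.0 CPM in IDH1mt, and 83.9, 86.0 and 76.2 CPM in PCDH. Every IDH1mt library lay above every other library, but the log2 fold change of 0.11 in IDH1mt against PCDH (SE 0.07) had an edgeR adjusted p of 0.281. Summed FPKM of the 3 genes was 65.0 ± 1.08 in C269S, 70.9 ± 1.87 in IDH1mt and 57.6 ± 1.06 in PCDH (SD, n = 3 each).

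Among the 9 genes from lanosterol to cholesterol, MSMO1 and LBR rose in IDH1mt against PCDH and none fell. MSMO1 (GRCh38 chr4:165327623-165343160) encodes the oxidase that removes the methyl groups at carbon 4 of the sterol. It had 77.7, 71.2 and 73.1 CPM in C269S, 89.0, 86.3 and 86.7 CPM in IDH1mt, and 74.3, 71.7 and 72.9 CPM in PCDH. All IDH1mt libraries lay above the other 6, and the C269S and PCDH libraries overlapped. The log2 fold change was 0.26 in IDH1mt against PCDH (SE 0.07, edgeR adjusted p = 0.00582), 0.02 in C269S against PCDH (SE 0.07, edgeR adjusted p = 0.943) and -0.24 in C269S against IDH1mt (SE 0.07, edgeR adjusted p = 0.0264). The call against IDH1mt was lost on leaving out any single IDH1mt library or C269S replicate 2 or 3, with edgeR adjusted p from 0.0668 to 0.145.

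LBR (GRCh38 chr1:225401502-225428925), a nuclear envelope protein that also reduces the sterol at carbon 14, had 30.6, 28 and 23.9 CPM in C269S, 30.7, 30.2 and 32.2 CPM in IDH1mt, and 24.7, 25.2 and 27.1 CPM in PCDH. IDH1mt and PCDH did not overlap, and C269S overlapped both. Its log2 fold change of 0.27 in IDH1mt against PCDH (SE 0.09) passed narrowly at an edgeR adjusted p of 0.049, and leaving out any of 7 libraries lost the call. TM7SF2, which catalyses the same reduction, was at 1.93 ± 0.234 FPKM in C269S, 1.76 ± 0.361 FPKM in IDH1mt and 1.65 ± 0.132 FPKM in PCDH, below LBR at 5.20 ± 0.640, 5.87 ± 0.197 and 4.84 ± 0.244 FPKM in those groups.

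DHCR7, the reductase of the last step of the Kandutsch-Russell branch, had 61.6, 62.3 and 67.4 CPM in C269S, 74.1, 70.4 and 80.0 CPM in IDH1mt, and 69.1, 66.8 and 59.7 CPM in PCDH. The IDH1mt libraries lay above all others, but neither log2 0.20 against PCDH (SE 0.07, edgeR adjusted p = 0.0713) nor log2 -0.23 of C269S against IDH1mt (SE 0.07, edgeR adjusted p = 0.0701) passed. The difference between C269S and IDH1mt was called without PCDH replicate 3 (log2 -0.23, edgeR adjusted p = 0.018), with the 6 mutant libraries alone (edgeR adjusted p = 0.0198) and with DESeq2 (adjusted p = 0.0442). NSDHL and HSD17B7, which act with MSMO1 in removing the methyl groups, the isomerase EBP and the desaturase SC5D were not called in any comparison. Their log2 fold changes ranged from -0.11 for HSD17B7 to 0.21 for NSDHL in IDH1mt against PCDH.

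CYP51A1, the demethylase that acts on lanosterol, was the member with the largest log2 difference between the mutant groups, and it did not pass the test. It had 4.70, 5.12 and 6.11 CPM in C269S, 3.41, 2.72 and 3.81 CPM in IDH1mt, and 3.83, 5.57 and 3.59 CPM in PCDH. C269S lay above IDH1mt without overlap, while PCDH spanned both. The log2 fold change was 0.69 in C269S against IDH1mt (SE 0.21, edgeR adjusted p = 0.055), and it was called without PCDH replicate 3 (edgeR adjusted p = 0.0254), with the 6 mutant libraries alone (edgeR adjusted p = 0.0236) or with DESeq2 (adjusted p = 0.0467). In GENCODE, 79.4% of the exon bases of CYP51A1 also belong to AC000120.2 on the same strand, which has no count in any library, so its count is uncertain. Summed over all 20 synthesis genes, FPKM was 198 ± 6.42 in C269S, 214 ± 3.18 in IDH1mt and 193 ± 4.62 in PCDH. This sum is weighted to the abundant genes, with SQLE alone at 36.9 FPKM in IDH1mt and 24.04 FPKM in PCDH. By gene, 11 of the 20 had a positive and 9 a negative log2 fold change in IDH1mt against PCDH, with a median of 0.034.

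Among the sensing genes, INSIG1 fell and SREBF2 rose in IDH1mt against PCDH. INSIG1 (GRCh38 chr7:155297776-155310235), the sterol-regulated protein that retains SCAP in the endoplasmic reticulum and is itself a target of SREBP, had 511, 451 and 447 CPM in C269S, 331, 343 and 341 CPM in IDH1mt, and 493, 508 and 540 CPM in PCDH. Every IDH1mt library lay below all others, and C269S overlapped PCDH. INSIG1 was 1.52-fold lower in IDH1mt than in PCDH (log2 -0.60, SE 0.06, edgeR adjusted p = 2.22e-09) and 1.39-fold higher in C269S than in IDH1mt (log2 0.47, SE 0.06, edgeR adjusted p = 5.90e-07). In C269S against PCDH the log2 fold change of -0.13 (SE 0.06) did not pass (edgeR adjusted p = 0.331).

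SREBF2 (GRCh38 chr22:41833079-41907308), the gene with the sterol regulatory element printed above, had 153, 141 and 157 CPM in C269S, 165, 176 and 172 CPM in IDH1mt, and 150, 147 and 134 CPM in PCDH. IDH1mt lay above both other groups, which overlapped each other. SREBF2 rose by log2 0.25 in IDH1mt against PCDH (SE 0.06, edgeR adjusted p = 0.00459), and its log2 difference of -0.19 in C269S against IDH1mt (SE 0.06, edgeR adjusted p = 0.0787) was called without PCDH replicate 3 (edgeR adjusted p = 0.0197), with the 6 mutant libraries alone (edgeR adjusted p = 0.0209) or with DESeq2 (adjusted p = 0.0456). SCAP, the escort of SREBP, was not called, with log2 fold changes between -0.09 and 0.05 over the 3 comparisons. Since INSIG1 is so abundant, summed FPKM of the 3 sensing genes was 166 ± 9.84 in C269S, 132 ± 2.28 in IDH1mt and 177 ± 5.98 in PCDH.

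INSIG2, the second INSIG gene, is not among the 33 and ran the other way from INSIG1. It had 38.8, 36.3 and 32.4 CPM in C269S, 53.9, 53.8 and 52.1 CPM in IDH1mt, and 37.9, 32.6 and 35.1 CPM in PCDH. IDH1mt stood above the other 6 libraries with a clear gap, and C269S overlapped PCDH. The log2 fold change was 0.60 in IDH1mt against PCDH (SE 0.08, edgeR adjusted p = 3.05e-06) and -0.57 in C269S against IDH1mt (SE 0.08, edgeR adjusted p = 1.61e-05). The ratio of INSIG1 FPKM to INSIG2 FPKM, chosen after the values were seen, was 14.2, 13.5 and 14.9 in C269S, 6.65, 6.90 and 7.07 in IDH1mt, and 14.1, 16.9 and 16.7 in PCDH.

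**Figure D3:**
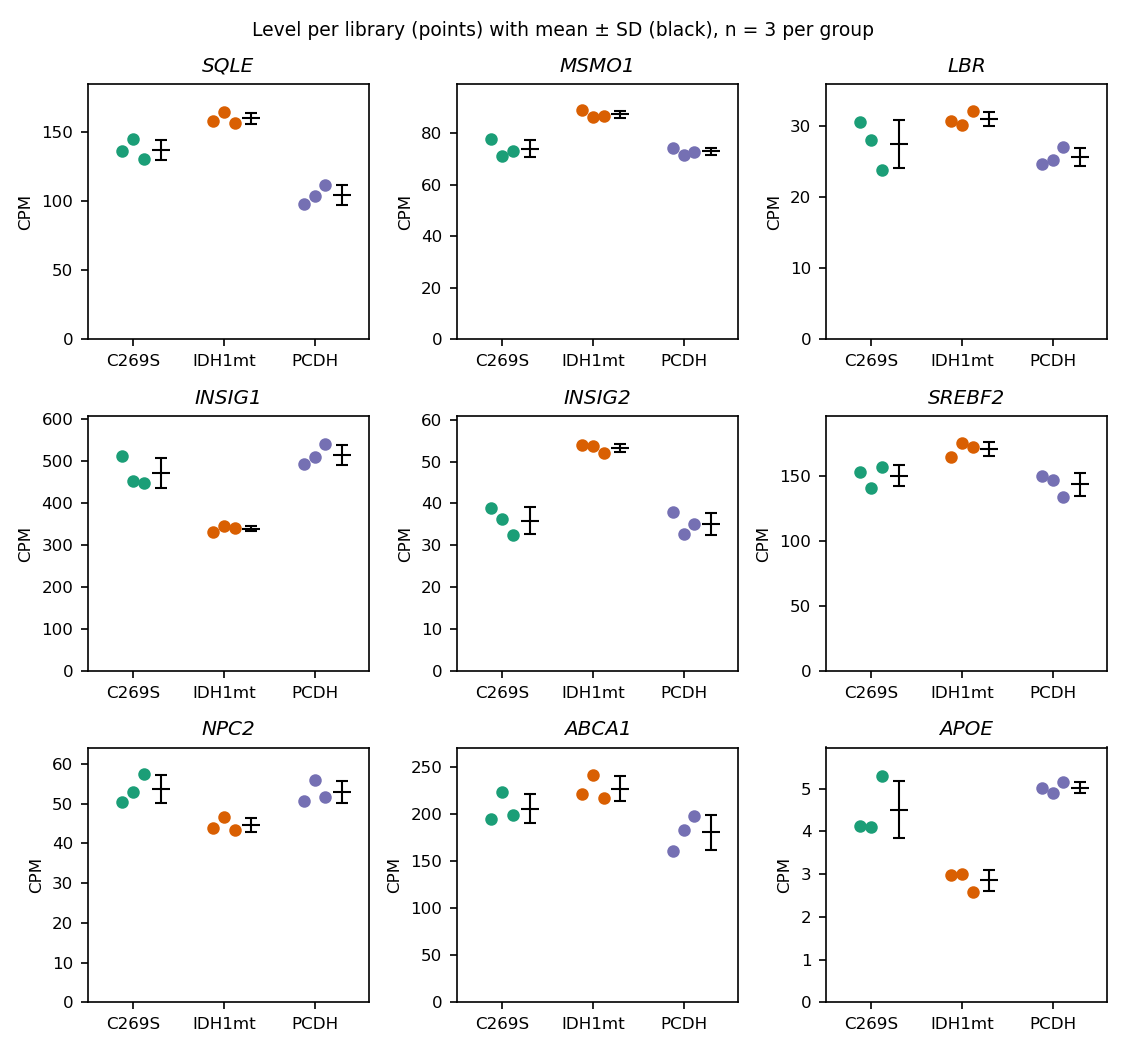
CPM in each library (points), with mean and SD in black, for the 8 members called in IDH1mt against PCDH and for INSIG2, in the order C269S, IDH1mt, PCDH. INSIG1 is lowest in IDH1mt (338 CPM, against 514 CPM in PCDH) while INSIG2 is highest there (53.3 CPM, against 35.2 CPM in PCDH), and SQLE is intermediate in C269S (137 CPM).

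Of the 5 genes of uptake, transport and storage, only NPC2 was called. NPC2 (GRCh38 chr14:74476192-74494177), which hands cholesterol to NPC1 in the lysosome, had 50.5, 52.9 and 57.5 CPM in C269S, 43.9, 46.6 and 43.4 CPM in IDH1mt, and 50.7, 56.0 and 51.7 CPM in PCDH. IDH1mt lay below both other groups, which overlapped. NPC2 fell by 0.24 on the log2 scale in IDH1mt against PCDH (SE 0.08, edgeR adjusted p = 0.0308) and was higher by log2 0.26 in C269S against IDH1mt (SE 0.08, edgeR adjusted p = 0.0389). The fall in IDH1mt did not pass when PCDH replicate 2, IDH1mt replicate 1 or IDH1mt replicate 3 was left out, and the rise in C269S did not pass when any one of the 6 mutant libraries was.

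NPC1, its partner in the lysosomal membrane, had 192, 187 and 192 CPM in C269S, 182, 198 and 186 CPM in IDH1mt, and 194, 196 and 192 CPM in PCDH. Its log2 fold change was -0.04 in IDH1mt against PCDH (SE 0.06), among the smallest errors of any member. MYLIP (an LXR target whose product removes lipoprotein receptors), STARD4 (a carrier of sterol between membranes) and SOAT1 (which esterifies cholesterol for storage) were not called in any comparison. The log2 fold changes of these genes and NPC1 lay between -0.09 and 0.08. MYLIP was the least precise of them, with an SE of 0.24 in each comparison, the largest of any member. Summed FPKM of the 5 genes was 53.8 ± 0.336 in C269S, 51.2 ± 1.14 in IDH1mt and 53.9 ± 1.21 in PCDH.

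**Figure D4:**
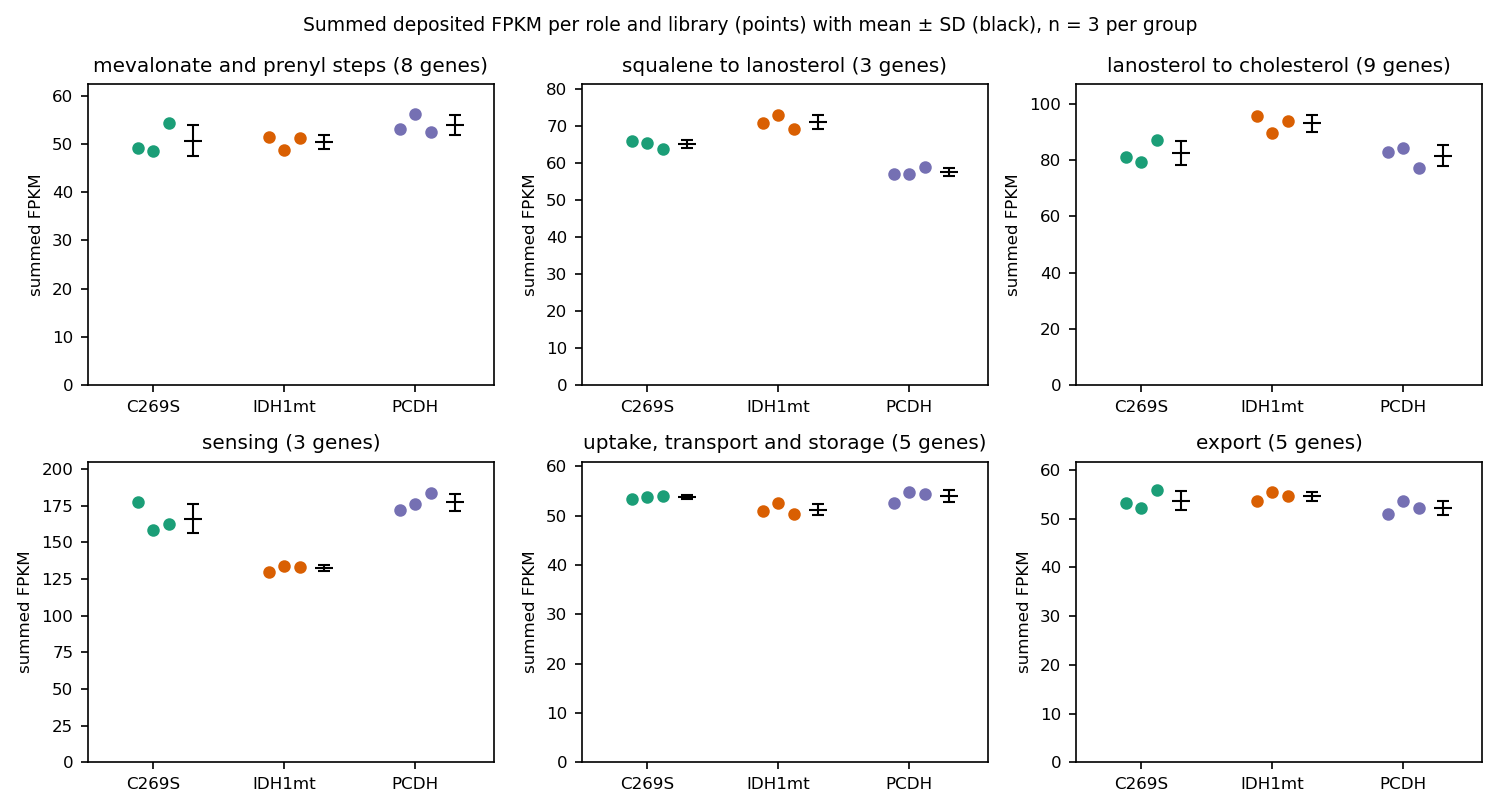
Summed deposited FPKM of each role in each library (points), with mean and SD in black, in the order C269S, IDH1mt, PCDH. The 3 sensing genes sum lowest in IDH1mt (132 FPKM, against 177 FPKM in PCDH), and the 3 genes from squalene to lanosterol sum highest there (70.9 FPKM, against 57.6 FPKM in PCDH).

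In export, ABCA1 and APOE moved in opposite directions in IDH1mt against PCDH. ABCA1 (GRCh38 chr9:104781002-104928237), an LXR target that passes cholesterol to lipid-poor apolipoproteins, had 195, 223 and 199 CPM in C269S, 221, 242 and 218 CPM in IDH1mt, and 161, 183 and 198 CPM in PCDH. IDH1mt lay above PCDH without overlap, and C269S overlapped both. ABCA1 rose by log2 0.33 in IDH1mt against PCDH (SE 0.07, edgeR adjusted p = 0.00104). Its log2 fold change of 0.19 in C269S against PCDH (SE 0.07, edgeR adjusted p = 0.206) was called only without PCDH replicate 3, at 0.26 (edgeR adjusted p = 0.00926). Between C269S and IDH1mt it was -0.14 (SE 0.07, edgeR adjusted p = 0.288).

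APOE (GRCh38 chr19:44905754-44909393), the apolipoprotein that carries cholesterol in the brain, was low in this line, at 4.13, 4.10 and 5.28 CPM in C269S, 2.99, 3.0 and 2.57 CPM in IDH1mt, and 5.01, 4.89 and 5.15 CPM in PCDH. IDH1mt lay below all other libraries, and C269S overlapped PCDH. APOE was 1.75-fold lower in IDH1mt than in PCDH (log2 -0.81, SE 0.20, edgeR adjusted p = 0.00508), the largest fold change of the 32 members in that comparison, at a low count. In C269S against IDH1mt its log2 fold change of 0.66 (SE 0.20) narrowly missed the threshold (edgeR adjusted p = 0.0539) and was called without PCDH replicate 3 (edgeR adjusted p = 0.0418), with the 6 mutant libraries alone (edgeR adjusted p = 0.0493) or with DESeq2 (adjusted p = 0.0434). Macrophages also express ABCA1 and APOE. The summed FPKM of the 4 macrophage markers PTPRC, AIF1, CD68 and CSF1R was 2.28 to 2.999 in C269S, 3.05 to 3.73 in IDH1mt and 1.72 to 2.23 in PCDH. By group means, CSF1R was the only one of them above 1 CPM, at 11.2 CPM in C269S, 16.1 CPM in IDH1mt and 8.74 CPM in PCDH. CD68 averaged 0.859, 0.737 and 0.687 CPM in those groups, and PTPRC and AIF1 were at most 0.181 CPM. Whether macrophage-like expression bears on ABCA1 or APOE was not tested.

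The LXR receptors themselves were not called in any comparison. NR1H2 had log2 fold changes of -0.04 in IDH1mt against PCDH, -0.01 in C269S against PCDH and 0.02 in C269S against IDH1mt (SE 0.06 each). NR1H3, the other LXR gene, was lower per length, at 2.50 ± 0.442 FPKM in C269S, 2.68 ± 0.288 FPKM in IDH1mt and 2.84 ± 0.362 FPKM in PCDH. Its log2 fold changes were -0.09, -0.18 and -0.09 in those comparisons (SE 0.14 each). Summed FPKM of the export genes was 53.7 ± 1.91 in C269S, 54.6 ± 0.948 in IDH1mt and 52.3 ± 1.41 in PCDH.

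Around the members, 44 further genes of 6 related lists were read, of which 42 were tested. In IDH1mt against PCDH, 4 of them rose and 2 fell (9.52% and 4.76%, beside 7.18% and 6.90% of all genes tested). In C269S against PCDH none was called, beside 0.883% of all genes higher and 0.533% lower. In C269S against IDH1mt, 1 rose and 2 fell (2.38% and 4.76%, beside 2.29% and 2.61% of all genes). These differences in share were not tested. At an unadjusted p under 0.05, edgeR had 5 of 42 higher and 3 lower in C269S against PCDH, beside 1040 higher and 979 lower of all 16874 genes. NCEH1 was called there by DESeq2 (log2 0.25, adjusted p = 0.0429) and with no filter on low counts (log2 0.25, edgeR adjusted p = 0.00893). Without PCDH replicate 3, edgeR called NCEH1 (log2 0.35), LIPA (log2 0.22) and PLTP (log2 -0.22) in that comparison. PLTP was also called there with library size alone (log2 -0.21, edgeR adjusted p = 0.0476) and without C269S replicate 3 (log2 -0.24, edgeR adjusted p = 0.0176). Among 11 genes of transport and esters, LIPA, the lysosomal esterase, rose to 106 ± 3.65 CPM in IDH1mt, against 81.7 ± 6.63 CPM in PCDH (log2 0.37, edgeR adjusted p = 0.000159). NCEH1, which hydrolyses cholesteryl esters outside the lysosome, rose to 263 ± 7.90 CPM in IDH1mt, against 210.0 ± 27.5 CPM in PCDH (log2 0.33, edgeR adjusted p = 0.000976). LIPA was lower in C269S, at 90.4 ± 1.09 CPM, than in IDH1mt (log2 -0.23, edgeR adjusted p = 0.043), a call lost without any one of the 6 mutant libraries.

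Among 6 partners and targets of LXR, PLTP, which transfers phospholipid between lipoproteins, was the only one called. It had 474, 479 and 538 CPM in C269S, 426, 424 and 416 CPM in IDH1mt, and 568, 589 and 541 CPM in PCDH, with no overlap between any of the groups. PLTP fell by 0.42 on the log2 scale in IDH1mt against PCDH (SE 0.06, edgeR adjusted p = 1.16e-06), and was higher by log2 0.24 in C269S against IDH1mt (SE 0.06, edgeR adjusted p = 0.0073), a call lost without IDH1mt replicate 3 or C269S replicate 3. In C269S against PCDH, PLTP was not called in the main fit (log2 -0.19, edgeR adjusted p = 0.0912). Of 3 lipoprotein receptor genes, VLDLR rose by log2 0.25 in IDH1mt against PCDH (edgeR adjusted p = 0.0101), a call lost without PCDH replicate 2 or IDH1mt replicate 2. Its log2 fold change of -0.19 in C269S against IDH1mt (SE 0.07, edgeR adjusted p = 0.11) was called without PCDH replicate 3 (edgeR adjusted p = 0.0405) or with the 6 mutant libraries alone (edgeR adjusted p = 0.0387). Of 10 prenyl branch genes, RABGGTB, a subunit of the transferase that prenylates Rab proteins, fell by 0.28 on the log2 scale (edgeR adjusted p = 0.00686, and 0.0514 without PCDH replicate 1). Of 10 genes of sensing and turnover in the endoplasmic reticulum only INSIG2 was called, and of 4 oxysterol enzymes none.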

How the data were processed

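RNA of 9 U87 libraries, 3 per group, was sequenced by the submitters, and their processing notes list the aligner HISAT2 (version 2.0.5), the counter featureCounts (version 1.5.0-p3), GRCh38 and hg38. The deposited count table holds whole-number read counts per gene, not normalized. The deposited FPKM table holds values the authors scaled by gene length and library size. For SQLE and INSIG1, they followed the TMM-scaled CPM used here more closely than the total counts did. Whether counting used strand is not given in the sources used here. Table columns called Control, mt and CS were taken as PCDH, IDH1mt and C269S by name.

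Genes were kept by filterByExpr (16874 of 58735), libraries scaled by TMM, and all 9 libraries fitted at once with a mean per group in edgeR version 4.0.16 (R version 4.3.3), using the robust quasi-likelihood F test and Benjamini-Hochberg adjustment over all genes tested. The standard error (SE) is the size of the log2 fold change over the root of F. CPM use TMM-scaled library sizes. FPKM served for levels between genes. Counts of the tested members ran from 45 to 12180 per library, and the SE of their log2 fold changes from 0.06 to 0.24. With 3 libraries against 3, an exact permutation test cannot go below p = 0.1, so none was used.

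Alternatives were DESeq2 size factors, library size alone, other filters, the 6 libraries of a comparison, the replicate number as a block, leaving out each library, DESeq2 version 1.42.0, limma version 3.58.1 (voom on counts, and log2 of FPKM plus 1 or 0.1), an adjusted p under 0.01, and a test against a 1.5-fold change. For IDH1 and the wider lists these were added after seeing the data. The fit was tested on simulated data, and the pass mark was eased to genes of moderate count after changed genes of low count were missed.

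All 33 members are named, with IDH1 and, of 6 wider lists, up to 2 called genes per list and direction. Promoters printed are those of synthesis or sensing members with the sterol regulatory element and of up to 2 called export members; INSIG1 and MSMO1 were added. Members and lists were chosen with earlier results of these data known.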

Additional observations from a re-analysis of the deposited data

How the results depend on the processing

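No called member changed sign in any alternative. Against a 1.5-fold change no member passed in any comparison (0 higher and 0 lower each), and all-gene counts were 119, 4 and 32 in IDH1mt against PCDH, C269S against PCDH and C269S against IDH1mt, in place of 2375, 239 and 827. Apart from that test, the calls of SQLE, MSMO1, SREBF2, ABCA1, INSIG1 and APOE in IDH1mt against PCDH, of SQLE in C269S against PCDH and of INSIG1 in C269S against IDH1mt held in every alternative run. For all genes, an adjusted p under 0.01 gave 1310, 100 and 413, and limma on log2 FPKM gave 1582 (plus 0.1) in IDH1mt against PCDH, 85 (plus 1) and 87 (plus 0.1) in C269S against PCDH, and 443 (plus 1) and 445 (plus 0.1) in C269S against IDH1mt. In C269S against PCDH, the 6 libraries alone gave 145 genes and DESeq2 359.

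The member counts of C269S against IDH1mt were the most variable, at 2 higher and 2 lower. They were 4 higher and 4 lower with DESeq2 or the 6 libraries alone, 4 higher and 0 lower with library size alone, 0 lower with no filter, 1 lower with limma on either FPKM scale, and 1 higher and 0 lower at an adjusted p under 0.01. The cause was not tested. Leaving out 1 library gave 1 to 4 higher and 0 to 4 lower there (450 to 1244 genes in all), 1 to 2 higher and 0 to 1 lower in C269S against PCDH (103 to 903 genes), and 4 to 5 higher and 2 to 4 lower in IDH1mt against PCDH (1617 to 3048 genes). The highest all-gene counts (3048, 903 and 1244) came without PCDH replicate 3. With library size alone, 35.2% of the genes called in IDH1mt against PCDH were higher in place of 51%, and 60.1% in place of 46.8% in C269S against IDH1mt, while the median of all genes shifted by less than 0.05.

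Same-numbered libraries of different groups did not deviate together (correlation of deviations from -0.0871 to 0.0558). Whether they were grown or prepared together is not given, and this check with 3 libraries per group cannot settle it. With the replicate block, 4 members were higher and 2 lower in IDH1mt against PCDH, 1 and 0 in C269S against PCDH, and 1 and 0 in C269S against IDH1mt, with 1987, 172 and 605 genes called in all.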
